A study of Homo sapiens with 16 samples.

Results

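Glycolysis and hypoxia response genes were examined in SW480 cells, a human colorectal cancer line with a truncated APC gene. The set was a written list of 41 genes, made of 23 genes of glucose transport and glycolysis, 16 other targets of the hypoxia-inducible factors (HIFs) and the 2 HIF alpha subunits HIF1A and EPAS1. A gene was measured by its brightest probe set, taken over all 16 arrays from the probe sets annotated to that gene alone. This gave values for 39 of the 41 genes, out of 19775 genes in all, and the lactate exporter gene SLC16A3 and the carbonic anhydrase gene CA9 were not analysed here. The 39 genes had 88 such probe sets, and comprised 22 glycolysis genes, 15 other HIF targets and the 2 subunits.

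The study asked how TAZ, a transcriptional coactivator encoded by WWTR1, takes part in Wnt signalling. It used 16 Affymetrix arrays in 4 groups of 4, with replicates lettered A to D. The siTAZ cells carried a stable empty vector and received an siRNA against TAZ. The sibcat cells carried the same empty vector and received an siRNA against beta-catenin, the effector of Wnt signalling. The APC cells stably carried a vector for wild-type APC, a protein that promotes beta-catenin breakdown, and received the control siRNA. The siGFP cells, the controls, carried the empty vector and the control siRNA. All cells were SW480 in the same medium, with insulin and hydrocortisone added, and no group was made hypoxic as far as the labels say. The labels call the replicates biological but do not say that they were separate cultures, nor whether the APC cells were 1 clone or several, so p-values measure only how these samples varied, in part perhaps technically.

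Glycolysis breaks glucose down to pyruvate, and many cancer cells turn that pyruvate into lactate even when oxygen is present. The HIF alpha subunits are hydroxylated by EGLN oxygenases and degraded when oxygen is plentiful; when oxygen is short they pair with ARNT, bind the hypoxia response element and raise genes of glucose uptake, glycolysis, blood vessel growth, matrix hydroxylation and survival. HIF alpha activity is thus set largely at the protein, and MYC also raises many glycolysis genes.

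Promoter sequence was read for 36 of the 41 listed genes from RefSeq on GRCh38.p14, as the 250 bases before each annotated start. SLC2A3, VEGFA, NDRG1, BNIP3L and HILPDA were not matched. The core of the hypoxia response element, ACGTG or GCGTG on either strand, lay in 24 of the 36 windows (66.7%), against 43.1% of all 27305 windows of the same length. It lay in 12 of the 22 glycolysis windows and in 10 of the 12 windows of other HIF targets. The form ACGTG alone lay in 44.4% of members' windows and in 18.7% of all windows. The E-box CACGTG, which MYC and BHLHE40 proteins can bind, holds ACGTG on both strands and so is counted on each strand among the cores; it lay in 6 members' windows (16.7%, against 6.49% of all). The TCF/LEF core CTTTGA lay in 1 member's window (2.78%, against 11.4% of all), that of PFKFB3. The TEAD core GGAATG lay in 2 (5.56%, against 11.9% of all), those of PGAM1 and ENO1. These letters in a window are a description and not a binding site. The 6 windows below belong to 3 other HIF targets that fell in APC cells and to 3 glycolysis genes that rose in siTAZ cells and fell in APC cells, with every ACGTG or GCGTG core of either strand in capitals. The windows are BHLHE40 chr3:4979187-4979436 (plus strand), ANKRD37 chr4:185396591-185396840 (plus strand), EGLN3 chr14:33951075-33951324 (minus strand), ALDOC chr17:28576896-28577145 (minus strand), ENO2 chr12:6914330-6914579 (plus strand) and PFKFB4 chr3:48556804-48557053 (minus strand). The EGLN3 window held 0 cores, and is shown beside those of BHLHE40 and ANKRD37, which fell in the same cells.
BHLHE40: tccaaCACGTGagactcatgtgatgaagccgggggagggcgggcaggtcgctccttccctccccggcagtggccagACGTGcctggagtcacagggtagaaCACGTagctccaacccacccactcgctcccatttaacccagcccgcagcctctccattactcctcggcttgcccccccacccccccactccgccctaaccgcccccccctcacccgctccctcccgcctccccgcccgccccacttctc
ANKRD37: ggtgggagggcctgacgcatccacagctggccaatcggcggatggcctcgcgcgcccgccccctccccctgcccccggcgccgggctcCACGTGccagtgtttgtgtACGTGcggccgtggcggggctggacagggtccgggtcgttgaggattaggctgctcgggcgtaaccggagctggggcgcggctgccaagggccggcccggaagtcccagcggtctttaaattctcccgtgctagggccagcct
EGLN3: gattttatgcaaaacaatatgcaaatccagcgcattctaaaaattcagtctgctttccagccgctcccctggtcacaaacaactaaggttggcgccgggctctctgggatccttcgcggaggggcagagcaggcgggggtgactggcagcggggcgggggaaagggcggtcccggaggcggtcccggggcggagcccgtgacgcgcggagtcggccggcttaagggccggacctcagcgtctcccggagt
ALDOC: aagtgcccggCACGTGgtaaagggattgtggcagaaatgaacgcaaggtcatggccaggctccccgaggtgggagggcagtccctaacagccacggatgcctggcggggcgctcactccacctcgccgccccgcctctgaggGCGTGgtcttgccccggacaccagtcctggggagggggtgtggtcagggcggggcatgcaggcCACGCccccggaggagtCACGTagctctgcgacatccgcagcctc
ENO2: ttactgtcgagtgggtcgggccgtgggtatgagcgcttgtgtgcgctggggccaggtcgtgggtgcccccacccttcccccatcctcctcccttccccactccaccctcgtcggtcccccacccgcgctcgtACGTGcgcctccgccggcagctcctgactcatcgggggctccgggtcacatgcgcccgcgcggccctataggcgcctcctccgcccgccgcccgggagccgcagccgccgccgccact
PFKFB4: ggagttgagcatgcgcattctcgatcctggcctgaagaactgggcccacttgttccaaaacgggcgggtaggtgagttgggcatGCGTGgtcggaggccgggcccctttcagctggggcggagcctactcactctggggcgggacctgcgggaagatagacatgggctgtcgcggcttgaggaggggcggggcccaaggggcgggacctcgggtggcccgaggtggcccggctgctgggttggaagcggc

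The deposited values are on a log2 scale and come from RMA, which adjusts background, equalises the distributions of the arrays and summarises each probe set. They ran from 1.8 to 14.56, with array medians of 5.06 to 5.12. The median of all values, 5.09, is used below as a mark under which a signal may be largely background. All 22 glycolysis genes and both HIF alpha subunits lay above it in every group, as did 13 of the 15 other HIF targets; BNIP3 lay below it in every group and LOX in all but APC cells. Levels of different genes come from different probes and are not compared with each other. The siRNAs lowered their targets: WWTR1 averaged 6.90 ± 0.15 in siTAZ cells and 10.28 ± 0.11 in siGFP cells, and CTNNB1, the beta-catenin gene, averaged 10.16 ± 0.24 in sibcat cells and 13.12 ± 0.16 in siGFP cells (SD, n = 4 each). The brightest probe set of APC differed by 0.08 in APC cells (limma adjusted p = 0.709), while 2 of its 4 others rose by 1.11 and 0.40; which lie in the introduced sequence was not known. Of 10 colorectal epithelium markers, 9 reached 5.09 in every group, among them EPCAM and KRT18, and LGALS4 did not. Of 8 fibroblast markers 3 reached the mark in every group, led by COL1A1, of 5 endothelial markers 1 (PECAM1) and of 6 measured leukocyte markers 1 (CSF1R); PTPRC and CDH5 were below it in every group. CD14, a monocyte marker, averaged 5.20 in siTAZ cells, 6.24 in sibcat cells, 5.08 in APC cells and 4.60 in siGFP cells, and its part in the results was not tested. Replicates C and D stood apart from A and B in every group on the 4th principal component over all genes, which held 4.7% of the variance, and siGFP replicate B lay farthest out on it (21.4, against -12.6 to 10.1 in the other arrays). The 3' minus 5' difference of the ACTB control probe sets, a sign of RNA quality, averaged 2.56 ± 0.39 in siTAZ cells, 2.30 ± 0.24 in sibcat cells, 2.08 ± 0.32 in APC cells and 2.05 ± 0.16 in siGFP cells (SD, n = 4). The exact two-sided permutation p against siGFP cells was 0.0571, 0.171 and 0.914 in that order of treated groups, where 0.0286 is the smallest possible.

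Among the 39 genes, APC cells most often carried the lowest levels. They had the lowest mean of the 4 groups for 29 of the 39 genes, and for 20 of these the difference from the next group passed the test. The falls were large in genes of glucose uptake and of the HIF response, such as SLC2A3, NDRG1, EGLN3 and BHLHE40. Sibcat cells had the highest mean for 21 genes, and 16 of these differed from the next group. Neither count was made over all genes, so no background share stands beside them. By their brightest probe sets, the glycolytic enzyme genes of sibcat cells rose by small amounts along the path, apart from LDHB, which fell. The siTAZ cells went both ways, with ALDOC, PFKFB3, ENO2 and PFKFB4 higher and EPAS1, P4HA2, ANKRD37 and HK2 lower.

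A gene was called at a Benjamini-Hochberg adjusted p under 0.05 in 1 limma fit of all 16 arrays, adjusted over all genes within a comparison. In siTAZ cells, 18 of the 39 genes rose against siGFP cells, 6 fell and 15 were not called, while of all 19775 genes 30.1% were called, 17.0% higher and 13.1% lower. Over all genes, the 4 siTAZ arrays did not overlap the 4 siGFP arrays for 29.6%. Of the 22 glycolysis genes 12 rose and 2 fell, with a median log2 difference of 0.18, and of the 15 other HIF targets 5 rose and 3 fell, with a median of -0.01, beside a median of 0.02 over all genes. In sibcat cells, 28 of the 39 genes rose against siGFP cells, 3 fell and 8 were not called, while of all 19775 genes 35.9% were called, 18.6% higher and 17.3% lower. Over all genes, the 4 sibcat arrays did not overlap the 4 siGFP arrays for 33.5%. Of the 22 glycolysis genes 19 rose and 1 fell, with a median log2 difference of 0.28, and of the 15 other HIF targets 8 rose and 1 fell, with a median of 0.27, beside a median of 0.00 over all genes. In APC cells, 2 of the 39 genes rose against siGFP cells, 23 fell and 14 were not called, while of all 19775 genes 33.7% were called, 16.6% higher and 17.1% lower. Over all genes, the 4 APC arrays did not overlap the 4 siGFP arrays for 31.7%. Of the 22 glycolysis genes 0 rose and 11 fell, with a median log2 difference of -0.15, and of the 15 other HIF targets 2 rose and 11 fell, with a median of -0.34, beside a median of 0.01 over all genes. In sibcat cells the 2 sets thus had like medians, but the share called higher was 86.4% of the glycolysis genes and 53.3% of the other HIF targets. In APC cells the share called lower was 50% of the glycolysis genes and 73.3% of the other HIF targets. No test was made between the sets. The 3 comparisons share the siGFP arrays, so they are not independent. Without probe sets of the _s_at and _x_at kinds, which can bind several transcripts, 23 genes could be measured. Of these 9 rose in siTAZ cells, 13 rose in sibcat cells and 14 fell in APC cells. Of all genes measured that way, 25.3%, 30.8% and 29.1% were called in the same order of groups. In replicates A and B alone 11 genes rose in siTAZ cells, with 18% of all genes called. The part of RNA quality in these counts was not tested as a cause. With the ACTB difference as a covariate 19 genes rose in siTAZ cells, 29 rose in sibcat cells and 25 fell in APC cells. That covariate left 27.9%, 36.3% and 36.5% of all genes called in siTAZ, sibcat and APC cells.

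**Figure D1:**
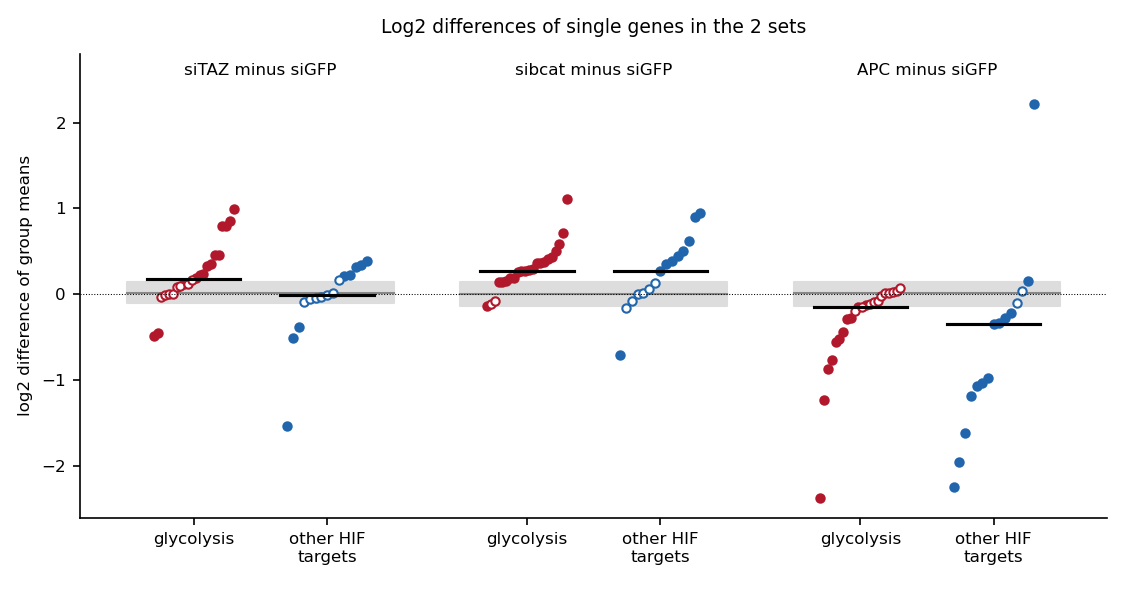
Log2 difference of each glycolysis gene (red) and each other HIF target (blue) in siTAZ, sibcat and APC cells minus siGFP cells. Filled points passed the test, black bars are the medians of the 2 sets, and the grey band and line are the middle 50% and the median of all 19775 genes; in sibcat cells most glycolysis genes lie above the band, and in APC cells most other HIF targets lie below it.

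**Figure D2:**
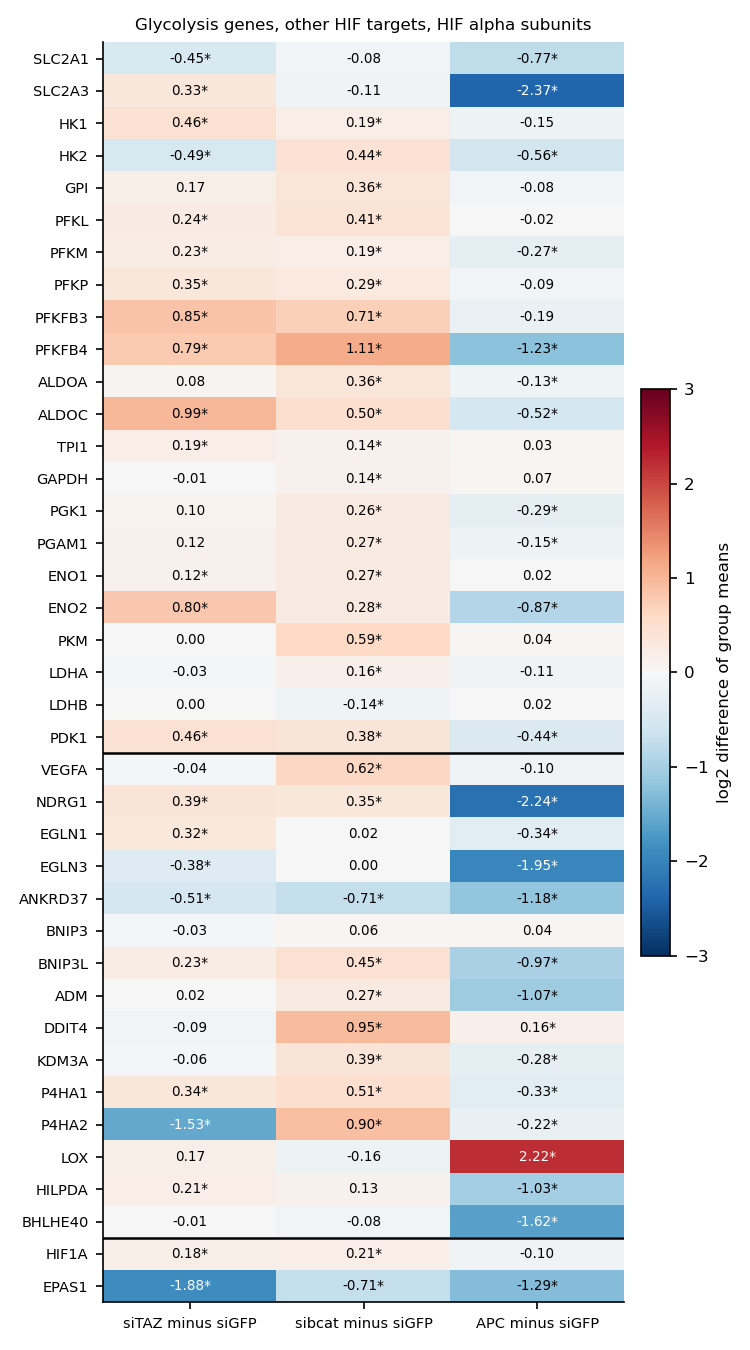
Log2 differences of all 39 genes (rows) in siTAZ, sibcat and APC cells minus siGFP cells (columns), with the value in each cell and an asterisk where the limma adjusted p was under 0.05. Lines separate glycolysis genes, other HIF targets and the HIF alpha subunits; the darkest blue cells, SLC2A3, NDRG1 and EGLN3, are in APC cells, and the darkest red cell is LOX in APC cells.

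Glucose enters cells through transporters, of which SLC2A1 (GLUT1) is the general one and SLC2A3 (GLUT3) has a high affinity for glucose. SLC2A3 stood at 13.19, 13.19, 13.19 and 13.26 in siTAZ cells, 12.74, 12.75, 12.83 and 12.75 in sibcat cells, 10.35, 10.53, 10.62 and 10.56 in APC cells and 12.89, 12.65, 12.99 and 12.99 in siGFP cells. The APC arrays lay under every other array, and the siTAZ arrays lay above all others. SLC2A3 fell by 2.37 in APC cells (SE 0.07, 5.15-fold lower, limma adjusted p = 1.33e-13), the largest fall among the 39 genes. All 3 of its probe sets fell there (-2.33 and -2.50 for the other 2). The smaller differences in the siRNA groups depended on the probe set. The brightest rose by 0.33 in siTAZ cells while another fell by 0.49, and in sibcat cells the brightest differed by -0.11 without passing while the others fell by 0.97 and 0.57. SLC2A14 is a near-identical copy of SLC2A3, and its signal cannot be told apart here. SLC2A1 averaged 11.69 ± 0.09 in siTAZ cells, 12.05 ± 0.03 in sibcat cells, 11.36 ± 0.06 in APC cells and 12.14 ± 0.08 in siGFP cells. It fell in siTAZ cells (-0.45) and in APC cells (-0.77), as did its other probe set (-0.50 and -1.07). In sibcat cells it differed by -0.08, with a 95% interval of -0.20 to 0.04.

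Hexokinases trap glucose as glucose 6-phosphate, HK1 in most tissues and HK2 as the form that HIF and many tumours raise. HK2 stood at 9.74, 9.70, 9.71 and 9.79 in siTAZ cells, 10.52, 10.59, 10.77 and 10.78 in sibcat cells, 9.65, 9.67, 9.69 and 9.66 in APC cells and 10.14, 10.18, 10.33 and 10.26 in siGFP cells. The sibcat arrays were the highest and the siTAZ and APC arrays the lowest, with no overlap with siGFP arrays on either side. By this probe set HK2 fell by 0.49 in siTAZ cells (limma adjusted p = 9.48e-06) and by 0.56 in APC cells (1.54e-06), and rose by 0.44 in sibcat cells (2.23e-05). Its 2 other probe sets fell in sibcat cells (-0.38 and -0.36) and in siTAZ cells (-0.56 and -0.59), so the fall in siTAZ cells held over all 3 and the sibcat rise did not. In APC cells they differed by -0.14 and -0.13 without passing. HK1 stood at 10.56, 10.51, 10.43 and 10.40 in siTAZ cells, against 10.03, 10.10, 10.00 and 9.94 in siGFP cells. It rose there by 0.46 (limma adjusted p = 1.11e-05), and by 0.19 in sibcat cells. The sibcat rise was lost under 3 of the 11 alternatives and without sibcat replicate A or B or siGFP replicate D (0.16 to 0.17). The siTAZ cells therefore had more HK1 signal and less HK2 signal than siGFP cells. GPI, which converts glucose 6-phosphate to fructose 6-phosphate, rose by 0.36 in sibcat cells and did not pass in siTAZ (0.17) or APC cells (-0.08). In C and D as the only replicates the siTAZ rise passed (0.19), as it did with the replicate letter as a block (0.17).

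Phosphofructokinase commits sugar to glycolysis and is built from liver (PFKL), muscle (PFKM) and platelet (PFKP) subunits. PFKP stood at 10.51, 10.40, 10.34 and 10.31 in siTAZ cells and 10.38, 10.44, 10.21 and 10.26 in sibcat cells, against 10.08, 10.20, 9.96 and 9.91 in siGFP cells. PFKL stood at 8.03, 7.98, 8.04 and 8.05 in siTAZ cells and 8.18, 8.18, 8.11 and 8.29 in sibcat cells, against 7.75, 7.86, 7.81 and 7.72 in siGFP cells. PFKM stood at 10.12, 10.07, 10.10 and 10.13 in siTAZ cells and 10.08, 10.04, 10.06 and 10.09 in sibcat cells, against 9.84, 9.86, 9.90 and 9.92 in siGFP cells. For each subunit neither siRNA group overlapped siGFP cells, and all rose in both groups, by 0.23 to 0.35 in siTAZ cells and by 0.19 to 0.41 in sibcat cells. In APC cells PFKM stood at 9.64, 9.50, 9.65 and 9.65 and fell by 0.27 (limma adjusted p = 0.000165). PFKL (-0.02) and PFKP (-0.09) did not pass there. The PFKM rise did not pass in replicates A and B alone in either siRNA group, nor in C and D alone in sibcat cells. In A and B alone the PFKL rise in siTAZ cells (0.20) and the PFKP rise in sibcat cells (0.27) did not pass either. The other PFKP probe set did not pass in siTAZ (0.18) or sibcat cells (0.10), while that of PFKL rose in both (0.22 and 0.37).

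PFKFB3 and PFKFB4 make fructose 2,6-bisphosphate, the activator of phosphofructokinase, and are HIF-responsive. PFKFB4 stood at 9.63, 9.51, 9.60 and 9.62 in siTAZ cells, 9.85, 9.94, 9.90 and 9.97 in sibcat cells, 7.65, 7.44, 7.55 and 7.67 in APC cells and 8.76, 8.88, 8.82 and 8.76 in siGFP cells. The 4 groups did not overlap, and their order was sibcat, siTAZ, siGFP and APC cells from high to low, with each neighbour differing past the test. PFKFB4 rose by 0.79 in siTAZ cells (SE 0.06, limma adjusted p = 1.86e-08) and by 1.11 in sibcat cells (SE 0.06, 1.36e-10), and fell by 1.23 in APC cells (SE 0.06, 2.63e-11). Its other probe set, at 5.05 in siGFP cells and so under 5.09, did not pass in any of them. PFKFB3 stood at 8.88, 8.95, 8.96 and 8.87 in siTAZ cells, 8.56, 8.70, 8.95 and 8.87 in sibcat cells, 7.76, 7.82, 8.01 and 7.89 in APC cells and 8.03, 7.91, 8.15 and 8.16 in siGFP cells. Both siRNA groups lay above siGFP cells without overlap, by 0.85 in siTAZ cells (SE 0.08, limma adjusted p = 5.56e-07) and by 0.71 in sibcat cells (SE 0.08, 2.74e-06). The APC and siGFP arrays overlapped, and the difference of -0.19 did not pass in APC cells. It did pass without APC replicate C (-0.24), without siGFP replicate B (-0.24) and under cyclic loess (-0.20). With the replicate letter as a block it passed too (-0.19).

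Aldolase splits the phosphorylated sugar, with ALDOA as the general form and ALDOC as the brain form that hypoxia raises. ALDOC stood at 8.48, 8.37, 8.13 and 8.27 in siTAZ cells, 7.80, 7.90, 7.81 and 7.80 in sibcat cells, 6.82, 6.63, 6.87 and 6.87 in APC cells and 7.47, 7.23, 7.45 and 7.14 in siGFP cells. The groups did not overlap, and ran siTAZ, sibcat, siGFP and APC cells from high to low. ALDOC rose by 0.99 in siTAZ cells (SE 0.09, 1.99-fold, limma adjusted p = 1.59e-07), the largest rise among the 39 genes in that comparison, and by 0.50 in sibcat cells (0.000156). It fell by 0.52 in APC cells (0.000115). ALDOA averaged 13.14 ± 0.04 in siTAZ cells, 13.43 ± 0.07 in sibcat cells, 12.93 ± 0.03 in APC cells and 13.07 ± 0.01 in siGFP cells. It rose by 0.36 in sibcat cells, and its fall by 0.13 in APC cells did not pass without APC replicate A, B or C or without siGFP replicate A or D (-0.13 in each).

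Enolase, which forms phosphoenolpyruvate, has a general form ENO1 and a neuronal form ENO2. ENO2 stood at 9.79, 9.66, 9.61 and 9.58 in siTAZ cells, 9.03, 9.26, 9.13 and 9.11 in sibcat cells, 8.08, 8.02, 7.99 and 7.86 in APC cells and 8.87, 8.94, 8.83 and 8.78 in siGFP cells. The groups again did not overlap and kept the order seen for ALDOC. ENO2 rose by 0.80 in siTAZ cells (SE 0.07, limma adjusted p = 6.98e-08) and by 0.28 in sibcat cells (0.00268), and fell by 0.87 in APC cells (SE 0.07, 1.41e-08). ENO1 averaged 12.97 ± 0.02 in siTAZ cells, 13.12 ± 0.04 in sibcat cells, 12.87 ± 0.04 in APC cells and 12.85 ± 0.04 in siGFP cells. It rose by 0.27 in sibcat cells and differed by 0.02 in APC cells. None of its 3 other probe sets passed in sibcat cells (0.12 to 0.23). ENO1 lost the sibcat call with the mean of all probe sets (0.18) and without _s_at and _x_at probe sets (0.23). Its rise by 0.12 in siTAZ cells was not stable, since another of its probe sets fell by 0.41 there and the rise did not pass without any siTAZ replicate in turn or without siGFP replicate A, B or D (0.10 to 0.13).

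**Figure D3:**
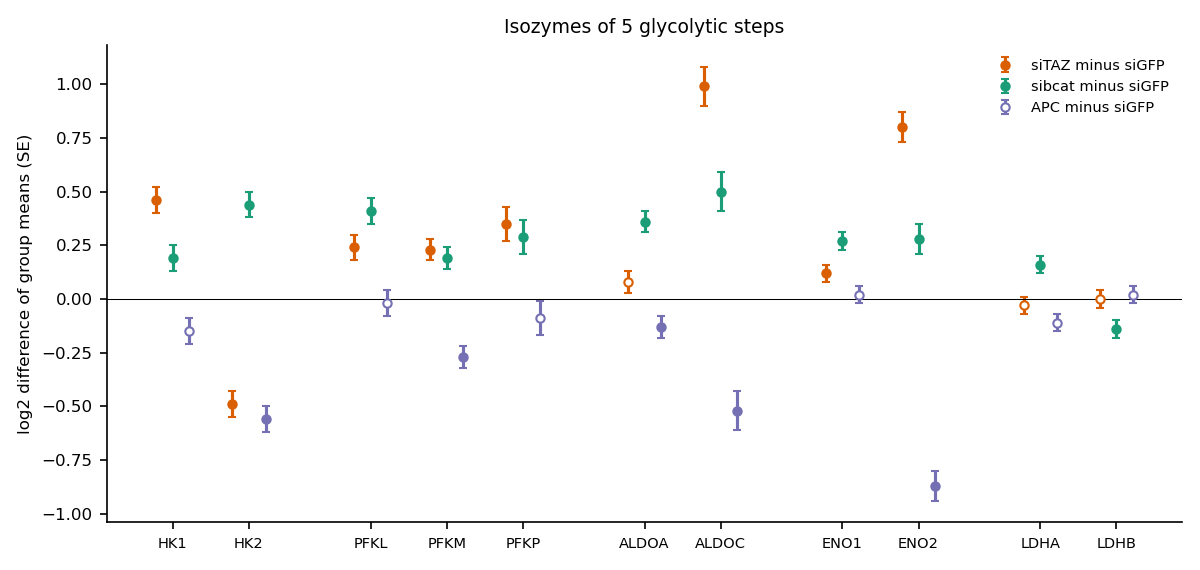
Log2 differences with their SE for the isozymes of 5 glycolytic steps in siTAZ, sibcat and APC cells minus siGFP cells, n = 4 per group. Filled points passed the test; ALDOC and ENO2 lie high in siTAZ cells and low in APC cells, HK2 is low in both, and LDHA and LDHB lie on opposite sides of 0 in sibcat cells.

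TPI1, GAPDH, PGK1, PGAM1 and PKM, which carry triose phosphates on to pyruvate, all rose in sibcat cells, by 0.14, 0.14, 0.26, 0.27 and 0.59 in that order. The smallest of these rises were not stable. Those of GAPDH and TPI1 were each lost under 5 of the 11 alternatives. GAPDH differed by 0.11 with centring on the 75th percentile. TPI1 differed by 0.06 with the mean of all probe sets, and its sign turned without _s_at and _x_at probe sets (-0.13). PKM, pyruvate kinase, stood at 10.14, 10.22, 9.88 and 9.90 in sibcat cells, against 9.66, 9.56, 9.29 and 9.28 in siGFP cells (limma adjusted p = 0.00108). Its other probe set rose by 0.75 as well; the probe sets do not tell its splice forms apart here. PGK1, which makes ATP from bisphosphoglycerate, stood at 13.76, 13.78, 13.76 and 13.74 in sibcat cells and 13.17, 13.23, 13.27 and 13.20 in APC cells, against 13.53, 13.47, 13.53 and 13.49 in siGFP cells. It rose in sibcat cells and fell by 0.29 in APC cells, where 4 of its 5 other probe sets fell too. PGAM1 also fell in APC cells, by 0.15. GAPDH averaged 14.13 ± 0.03 in siTAZ cells, 14.28 ± 0.02 in sibcat cells, 14.21 ± 0.01 in APC cells and 14.14 ± 0.03 in siGFP cells, near the top of the array range. In siTAZ cells TPI1 rose by 0.19, while PGK1 (0.10), PGAM1 (0.12), GAPDH (-0.01) and PKM (0.00) did not pass. PGAM1 passed there under 6 of the 11 alternatives and PGK1 under 3, with values up to 0.17 for both under cyclic loess. The other PKM probe set rose by 0.33 in siTAZ cells, while the brighter one stood at -0.31 with the ACTB covariate, so PKM has no settled direction there. Over all 17 enzymes from hexokinase to lactate dehydrogenase, sibcat cells had 16 higher and 1 lower, with a median of 0.27. In siTAZ cells 8 were higher and 1 lower (0.12), and in APC cells 0 and 7 (-0.11). Of all genes, 18.6% rose and 17.3% fell in sibcat cells, 17.0% and 13.1% in siTAZ cells and 16.6% and 17.1% in APC cells. The sibcat count depends in part on the brightest probe sets. Both other HK2 probe sets fell there, and no other ENO1 probe set passed. In fold terms the sibcat rises were small, from 1.1-fold for GAPDH to 1.5-fold for PKM.

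Lactate dehydrogenase turns pyruvate into lactate, with LDHA the form that HIF and MYC raise and LDHB the form that favours the reverse reaction. LDHA stood at 14.17, 14.19, 14.21 and 14.17 in sibcat cells, against 14.00, 13.98, 14.05 and 14.06 in siGFP cells. LDHB stood at 13.38, 13.39, 13.45 and 13.38 in sibcat cells, against 13.52, 13.54, 13.59 and 13.50 in siGFP cells. Neither gene's arrays overlapped, with LDHA higher by 0.16 (limma adjusted p = 0.00522) and LDHB lower by 0.14 (0.0176), the one enzyme of the path that fell in sibcat cells. The LDHB call was lost without siGFP replicate C (-0.12), in either pair of replicates alone and in a fit of the compared groups alone. It was also lost with another normalisation, cyclic loess (-0.05). The LDHA call was lost in either pair of replicates alone as well (0.19 in A and B, 0.14 in C and D). In siTAZ cells LDHA stood at 13.98, 13.97, 14.00 and 14.01 and LDHB at 13.58, 13.52, 13.54 and 13.50, and neither passed. In APC cells LDHA stood at 13.86, 13.90, 13.94 and 13.96, a difference of -0.11 that did not pass (adjusted p = 0.0593; it passed under 5 of the 11 alternatives and without siGFP replicate B, -0.12), and LDHB at 13.53, 13.52, 13.57 and 13.59. PDK1, a kinase that inhibits pyruvate dehydrogenase, stood at 10.24, 10.06, 10.20 and 10.26 in siTAZ cells, 9.93, 10.04, 10.35 and 10.15 in sibcat cells and 9.17, 9.15, 9.47 and 9.39 in APC cells, against 9.66, 9.41, 9.97 and 9.89 in siGFP cells. It rose in siTAZ (0.46) and sibcat cells (0.38) and fell in APC cells (-0.44), although the sibcat and APC arrays each overlapped siGFP arrays. The sibcat rise did not pass without sibcat replicate C (0.31) or without siGFP replicate B (0.28).

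The HIF alpha subunits parted. EPAS1 stood at 9.82, 9.82, 9.76 and 9.70 in siTAZ cells, 10.97, 10.97, 10.95 and 10.88 in sibcat cells, 10.44, 10.42, 10.35 and 10.25 in APC cells and 11.78, 11.61, 11.58 and 11.65 in siGFP cells. EPAS1, which encodes HIF-2 alpha, was lower than in siGFP cells in every array of every treated group, and the 4 groups did not overlap. It fell by 1.88 in siTAZ cells (SE 0.06, leaving 27.2% of the siGFP signal, limma adjusted p = 7.69e-13), by 0.71 in sibcat cells (61%, 3.15e-08) and by 1.29 in APC cells (40.9%, 1.45e-11). Its 2 other probe sets lay under 5.09 in siGFP cells, and 1 of them fell past the test in siTAZ cells (-0.39). HIF1A stood at 12.25, 12.16, 12.24 and 12.27 in siTAZ cells, 12.24, 12.23, 12.35 and 12.25 in sibcat cells, 11.88, 11.97, 12.09 and 11.89 in APC cells and 11.99, 11.92, 12.15 and 12.16 in siGFP cells. HIF1A, which encodes HIF-1 alpha, rose by 0.21 in sibcat cells (limma adjusted p = 0.0148). This was lost without sibcat replicate C (0.19) or siGFP replicate B (0.17), and with C and D as the only replicates (0.14). The rise by 0.18 in siTAZ cells came from arrays that overlapped siGFP arrays, and was lost without siTAZ replicate A, C or D or siGFP replicate A or B (0.13 to 0.17), and under 5 of the 11 alternatives. In APC cells HIF1A differed by -0.10, with a 95% interval of -0.23 to 0.04. The largest HIF1A difference thus had a size of 0.21, against 0.71 to 1.88 for EPAS1.

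**Figure D4:**
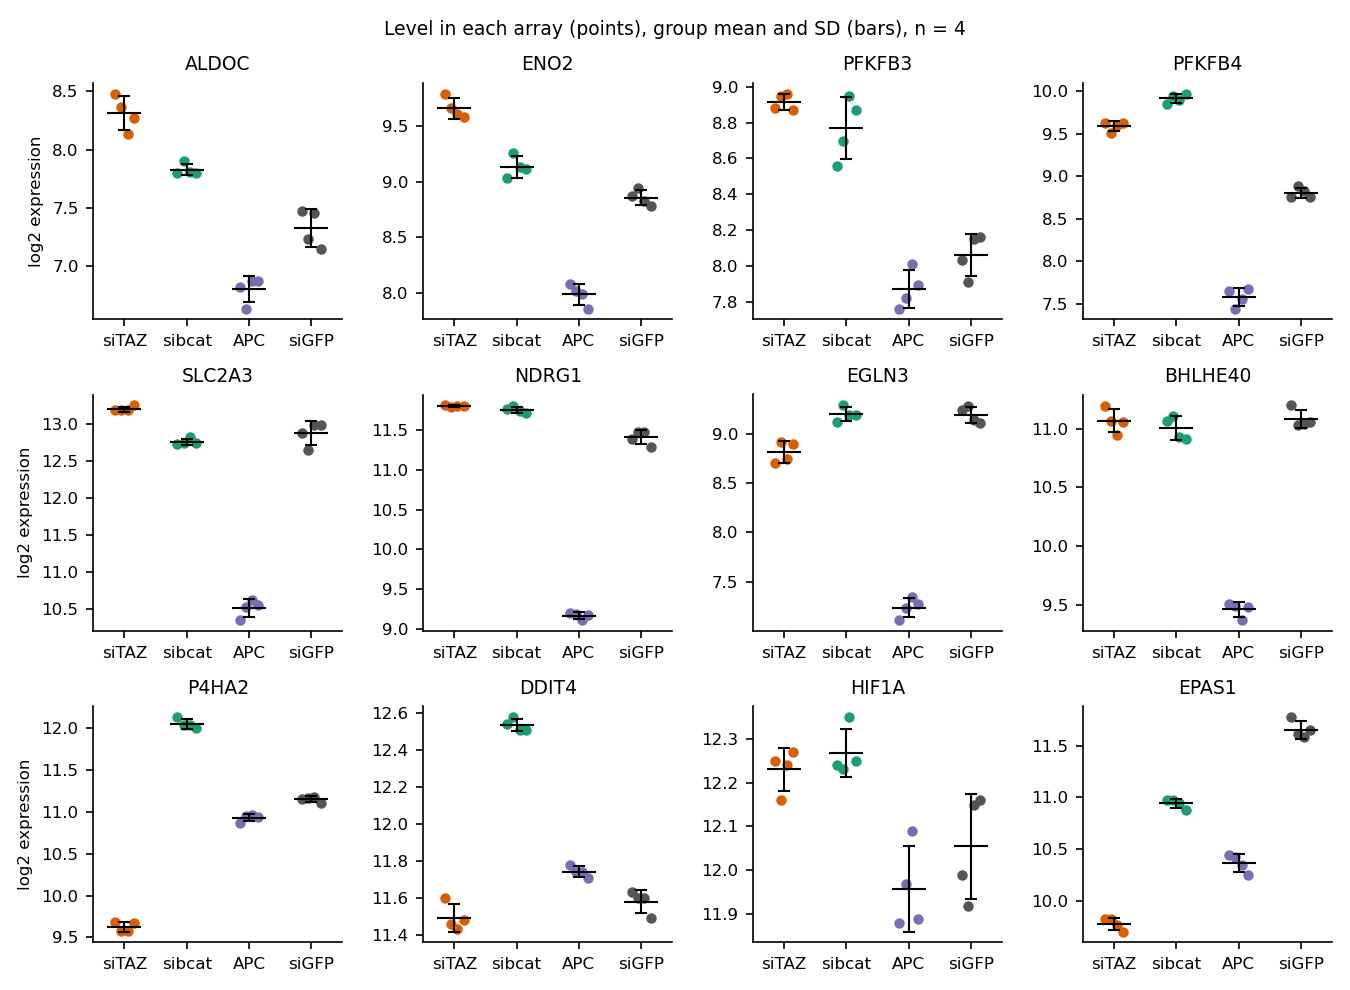
Log2 level of 12 genes in each of the 16 arrays (points), with group mean and SD (bars, n = 4), in siTAZ, sibcat, APC and siGFP cells. The vertical axes differ between panels; SLC2A3, NDRG1, EGLN3 and BHLHE40 stand apart in APC cells, P4HA2 is low in siTAZ and high in sibcat cells, and EPAS1 is lower in all 3 treated groups than in siGFP cells.

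Among the oxygen sensors and their feedback, EGLN3, a prolyl hydroxylase that HIF itself raises, separated APC cells from the rest. EGLN3 stood at 8.70, 8.92, 8.74 and 8.90 in siTAZ cells, 9.12, 9.29, 9.19 and 9.19 in sibcat cells, 7.11, 7.23, 7.34 and 7.27 in APC cells and 9.24, 9.28, 9.14 and 9.11 in siGFP cells. The APC arrays lay below all others, and the sibcat and siGFP arrays overlapped. EGLN3 fell by 1.95 in APC cells (SE 0.07, 3.88-fold lower, limma adjusted p = 4.66e-13) and by 0.38 in siTAZ cells (0.000303). Its other probe set also fell in APC cells (-1.62). In sibcat cells that probe set fell by 0.56 while the brighter one differed by 0.00. EGLN1, the main oxygen sensor of the family, averaged 10.59 ± 0.06 in siTAZ cells, 10.29 ± 0.09 in sibcat cells, 9.94 ± 0.11 in APC cells and 10.28 ± 0.14 in siGFP cells. It rose by 0.32 in siTAZ cells and fell by 0.34 in APC cells. In sibcat cells it differed by 0.02, while 2 other EGLN1 probe sets rose (0.34 and 0.28). ANKRD37 stood at 9.83, 9.91, 9.90 and 9.85 in siTAZ cells, 9.73, 9.58, 9.68 and 9.71 in sibcat cells, 9.21, 9.24, 9.16 and 9.20 in APC cells and 10.41, 10.40, 10.34 and 10.37 in siGFP cells. ANKRD37, a small ankyrin protein gene induced by hypoxia, was lower in every array of the treated groups than in siGFP cells. It fell by 0.51 in siTAZ cells, by 0.71 in sibcat cells and by 1.18 in APC cells (limma adjusted p = 2.55e-07, 2.49e-09 and 2.72e-12). Its other probe set, below 5.09, rose by 0.45 in APC cells.

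**Figure D5:**
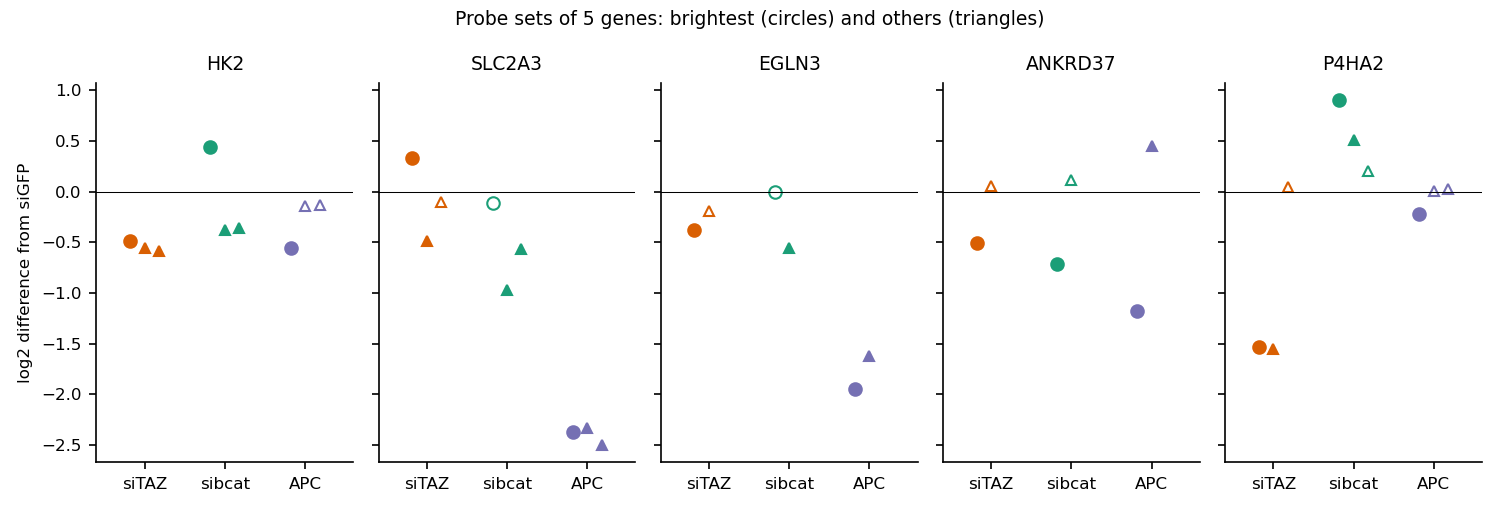
Log2 differences of all probe sets of HK2, SLC2A3, EGLN3, ANKRD37 and P4HA2 in siTAZ, sibcat and APC cells minus siGFP cells. Circles are the brightest probe set, triangles the others, and filled marks passed the test over all probe sets; the SLC2A3 and EGLN3 falls in APC cells are shared by their probe sets, while the HK2 probe sets point opposite ways in sibcat cells.

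The stress genes NDRG1 and BHLHE40 also stood apart in APC cells. NDRG1 stood at 11.81, 11.79, 11.80 and 11.80 in siTAZ cells, 11.76, 11.80, 11.74 and 11.71 in sibcat cells, 9.20, 9.19, 9.11 and 9.17 in APC cells and 11.39, 11.48, 11.47 and 11.29 in siGFP cells. NDRG1, a differentiation and stress gene strongly raised by hypoxia, fell by 2.24 in APC cells (SE 0.05, 4.72-fold lower, limma adjusted p = 1.9e-15). It rose by 0.39 in siTAZ cells and by 0.35 in sibcat cells, without overlap with siGFP arrays. BHLHE40 stood at 11.19, 11.07, 10.95 and 11.06 in siTAZ cells, 11.07, 11.11, 10.93 and 10.91 in sibcat cells, 9.51, 9.49, 9.37 and 9.48 in APC cells and 11.20, 11.03, 11.04 and 11.06 in siGFP cells. BHLHE40, a transcriptional repressor raised by HIF, fell by 1.62 in APC cells (SE 0.06, limma adjusted p = 3.66e-12), as did its other probe set (-0.95). It did not pass in siTAZ (-0.01) or sibcat cells (-0.08), whose arrays overlapped those of siGFP cells. The difference between sibcat and APC cells was itself past the test for both genes, with APC minus sibcat at -2.59 for NDRG1 and -1.54 for BHLHE40.

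The other HIF targets included genes of vessel growth, lipid storage and mitochondrial removal. ADM, a vasodilating peptide hormone, averaged 11.09 ± 0.02 in siTAZ cells, 11.35 ± 0.03 in sibcat cells, 10.00 ± 0.03 in APC cells and 11.07 ± 0.02 in siGFP cells. It fell by 1.07 in APC cells and rose by 0.27 in sibcat cells. VEGFA, the main vessel growth factor, averaged 9.20 ± 0.04, 9.86 ± 0.05, 9.13 ± 0.06 and 9.23 ± 0.19 in the same order of groups. It rose by 0.62 in sibcat cells (limma adjusted p = 3.16e-06) and did not pass in siTAZ (-0.04) or APC cells (-0.10). Without siGFP replicate B the APC difference passed at -0.19. In siTAZ cells the mean of all VEGFA probe sets passed at -0.19, and 1 of the 3 other probe sets fell (-0.43). BNIP3L, a mitophagy receptor, rose by 0.45 in sibcat cells and fell by 0.97 in APC cells, and its other probe set gave 0.45 and -0.90. Its rise by 0.23 in siTAZ cells was lost without siTAZ replicate A, C or D or siGFP replicate B (0.16 to 0.23). Its relative BNIP3 averaged between 3.07 and 3.16 in every group, under the background mark, so its differences are not read here. HILPDA, a lipid droplet protein gene, fell by 1.03 in APC cells, rose by 0.21 in siTAZ cells and differed by 0.13 in sibcat cells without passing. The sibcat difference passed under 5 of the 11 alternatives, at 0.13 to 0.17, and the other HILPDA probe set rose there (0.21). KDM3A, a histone demethylase, rose by 0.39 in sibcat cells and fell by 0.28 in APC cells. The other KDM3A probe set did not pass in sibcat (0.11) or APC cells (0.12). The KDM3A fall in APC cells was lost with the mean of all probe sets (-0.08) and in replicates A and B alone (-0.24).

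DDIT4, an inhibitor of the growth kinase mTORC1, was highest in sibcat cells and not lowest in APC cells. DDIT4 stood at 11.60, 11.46, 11.43 and 11.48 in siTAZ cells, 12.54, 12.58, 12.51 and 12.51 in sibcat cells, 11.78, 11.74, 11.74 and 11.71 in APC cells and 11.63, 11.60, 11.60 and 11.49 in siGFP cells. The sibcat arrays lay above all others, the APC arrays came next, and the siTAZ and siGFP arrays overlapped. DDIT4 rose by 0.95 in sibcat cells (SE 0.05, 1.94-fold, limma adjusted p = 1.39e-10). It was among the 2 genes that rose in APC cells, by 0.16 (0.0164), a call lost without siGFP replicate D (0.13).

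Of the collagen-modifying genes, P4HA2 went opposite ways with the siRNAs. P4HA1 and P4HA2 encode catalytic subunits of collagen prolyl 4-hydroxylase, and LOX cross-links collagen. P4HA2 stood at 9.68, 9.58, 9.57 and 9.67 in siTAZ cells, 12.14, 12.04, 12.04 and 12.00 in sibcat cells, 10.87, 10.95, 10.96 and 10.94 in APC cells and 11.16, 11.17, 11.18 and 11.11 in siGFP cells. No 2 groups overlapped, and the siTAZ arrays were the lowest and the sibcat arrays the highest. P4HA2 fell by 1.53 in siTAZ cells (SE 0.05, leaving 34.6%, limma adjusted p = 9.67e-13) and rose by 0.90 in sibcat cells (SE 0.05, 1.89e-10). Another probe set gave -1.55 and 0.51. P4HA2 was also called lower in APC cells, where its 2 other probe sets did not pass (0.01 and 0.03). That call was lost with the mean of all probe sets (-0.06) and in either pair of replicates alone (-0.26 in A and B, -0.19 in C and D). The difference of siTAZ minus sibcat cells was -2.43 (8.71e-16), the largest between the siRNA groups among the 39 genes. P4HA1 rose in siTAZ (0.34) and sibcat cells (0.51) and fell in APC cells (-0.33), by a probe set of the _s_at kind; its only other probe set lay at 2.52 in siGFP cells and did not pass. LOX stood at 3.69, 3.39, 3.48 and 3.54 in siTAZ cells, 3.45, 2.89, 3.34 and 3.10 in sibcat cells, 5.76, 5.18, 5.87 and 5.49 in APC cells and 3.18, 3.03, 3.71 and 3.52 in siGFP cells. The APC arrays lay above all others, and the siTAZ, sibcat and siGFP arrays overlapped. LOX rose by 2.22 in APC cells (SE 0.16, limma adjusted p = 1.11e-08), the opposite direction to most HIF targets there. Its siGFP mean lay under 5.09, so the size of the rise is uncertain, and of its 2 other probe sets 1 rose (0.89) and 1 did not pass (-0.08).

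The treated groups were also compared with each other, since APC and the siRNA against beta-catenin both act on beta-catenin. By the brightest probe sets, APC cells lay below sibcat cells for nearly the whole list. Of the 39 genes 35 were lower and 2 higher in APC than in sibcat cells, with 2 not called, while of all genes 42.0% were called, 21.7% lower and 20.3% higher, and 39.9% did not overlap. The median log2 difference was -0.48 for glycolysis genes and -0.85 for other HIF targets, beside 0.01 over all genes. The 2 higher were LOX (2.38) and LDHB (0.15), and those not called were GAPDH (-0.06) and BNIP3 (-0.02). Largest were the falls of NDRG1 (-2.59), PFKFB4 (-2.34), SLC2A3 (-2.25) and EGLN3 (-1.96). Some of the lower calls depended on the probe set. Another probe set of HK2 (0.23) and that of ANKRD37 (0.34) were called higher in APC cells. TPI1 was higher there without _s_at and _x_at probe sets (0.33). The mRNA signal of CTNNB1 itself differed the other way, at 12.75 in APC cells and 10.16 in sibcat cells. Beta-catenin protein was not measured on these arrays.

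Between siTAZ and sibcat cells, 7 of the 39 genes were higher and 20 lower in siTAZ cells, beside 18.9% and 17.8% of all genes (36.7% called, 36.6% not overlapping). Higher in siTAZ cells were ENO2 (0.53), ALDOC (0.49), SLC2A3 (0.44), EGLN1 (0.31), HK1 (0.27), ANKRD37 (0.20) and LDHB (0.13). Lower were P4HA2, EPAS1 (-1.17), DDIT4 (-1.04), HK2 (-0.93), VEGFA (-0.66) and PKM (-0.59), with 14 others. The 2 other HK2 probe sets did not pass (-0.24 and -0.18). EGLN3 was among the 14 others, while its other probe set was higher in siTAZ cells (0.36). In replicates A and B alone 11 genes were lower, with 26% of all genes called. Between siTAZ and APC cells, 26 were higher and 4 lower in siTAZ cells, beside 22.4% and 19.9% of all genes (42.4% called). SLC2A3 (2.69), NDRG1 (2.63) and PFKFB4 (2.01) were highest, and LOX (-2.05), P4HA2 (-1.30), EPAS1 (-0.59) and DDIT4 (-0.25) were lower.

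Further written lists show the neighbouring genes. Of 26 measured further HIF targets, 17 rose and 1 fell in siTAZ cells (median 0.28), 16 rose and 6 fell in sibcat cells (0.36), and 8 rose and 13 fell in APC cells (-0.12). Called were 69.2%, 84.6% and 80.8% of this list in siTAZ, sibcat and APC cells, against 30.1%, 35.9% and 33.7% of all genes. In siTAZ cells HMOX1, heme oxygenase, rose by 1.05 and TMEM45A by 1.01, while GPD1L fell by 0.98. In sibcat cells the collagen cross-linking enzyme gene LOXL2 rose by 1.88 and the glycogen regulator gene PPP1R3C by 1.22, and GPD1L fell by 1.38. In APC cells TMEM45A fell by 2.02, the secreted hormone gene STC1 by 1.91 and the lipoprotein receptor gene VLDLR by 1.91. Not all of this list fell there: 30.8% was called higher and 50% lower, against 16.6% and 17.1% of all genes.

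Of 18 components that set HIF activity, 6 rose and 2 fell in siTAZ cells, 3 and 4 in sibcat cells, and 2 and 3 in APC cells. Called were 44.4%, 38.9% and 27.8% of these in siTAZ, sibcat and APC cells, against the same 30.1%, 35.9% and 33.7% of all genes, shares near the background. VHL, the ubiquitin ligase subunit that removes HIF alpha, rose in siTAZ (0.75), sibcat (0.54) and APC cells (0.59) against the shared controls. HIF1AN, which blocks HIF coactivation when oxygen is present, rose by 0.77 in siTAZ cells. ARNT, the HIF partner, rose by 0.44 in siTAZ cells and fell by 0.48 in sibcat cells, and its relative ARNT2 fell in sibcat (-0.58) and APC cells (-0.41). CITED2, a HIF-raised inhibitor of HIF, fell by 2.17 in APC cells. Of 37 other measured genes of glucose and pyruvate metabolism, 10 rose and 7 fell in siTAZ cells, 16 and 9 in sibcat cells, and 8 and 11 in APC cells. Their called shares were 45.9%, 67.6% and 51.4%, beside 30.1%, 35.9% and 33.7% of all genes. MPC2, which helps carry pyruvate into mitochondria, stood at 7.31, 7.21, 7.44 and 7.36 in siTAZ cells, against 10.00, 9.91, 9.96 and 9.99 in siGFP cells, a fall by 2.63. DLAT, a subunit of pyruvate dehydrogenase, fell by 0.65 there, and PDK4, an inhibitor of that enzyme, rose by 0.67. In sibcat cells PFKFB2 fell by 2.03 while the transporter gene SLC2A12 rose by 1.53 and PDK4 by 0.86. In APC cells the transporter gene SLC2A10 fell by 2.12 and PCK2, which makes phosphoenolpyruvate in mitochondria, by 1.33, while HKDC1, a hexokinase relative, rose by 1.43. The labels name no further siRNA or control vector for any target, so effects beyond the target cannot be told apart from those of the target.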

How the data were processed

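Expression was measured on 16 Affymetrix arrays of SW480 cells. The authors deposited log2 values per probe set and array, made with RMA per the submitters' processing notes, which name no version; that the log is to base 2 follows from their range. The table held 54675 probe sets, of which 41097 were paired with 1 gene in the platform annotation; symbols were checked through the gene ID for 41043. The brightest probe set by mean over 16 arrays stood for each of 19775 genes, with no filter on dim genes. Differences were tested in limma 3.58.1 (R 4.3.3) with lmFit and eBayes in 1 model with 4 group means and no block, adjusted over all genes within a comparison. Single probe sets were fitted over all 54675. The fit was tested on simulated data. RNA quality measures were compared by exact two-sided permutation tests. Signals on arrays have no count behind them, and 4 arrays per group limit the precision. Figures were drawn with matplotlib 3.10.9.

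The members, gene lists and alternatives were chosen with earlier results of these data known. Per-array values are given for the 4 largest increases and decreases per comparison with siGFP among called members whose brighter group reached 5.09. They are also given for HIF1A, EPAS1 and isozymes of a step where 1 passed, with some exceptions. ALDOA and ENO1 have only means and SD, HK1 only siTAZ and siGFP arrays, and PFKL and PFKP no APC arrays. Companion lists give up to 3 genes per comparison. Other members with array values, namely PDK1, PGK1, PKM and of the companion lists MPC2, were chosen after their values were seen. Protein sequences were not used here. Alternatives were the replicate letter as a block, the mean of all probe sets, no _s_at or _x_at probe sets, no dim genes, cyclic loess, centring on the 75th percentile, eBayes with trend and robust, only the groups compared, an ACTB covariate, replicates A and B or C and D alone, and each array left out. No GAPDH or ACTB scaling was applied.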

Additional observations from a re-analysis of the deposited data

Results flagged for a closer look

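In 8 of the 156 sets of 4 replicates among the 39 genes, 1 array lay far from the other 3 relative to their range; about 1 in 20 such sets, or 7.8, is flagged by chance. The high arrays were SLC2A3 in siTAZ replicate D (13.26, against 13.19 in the others), SLC2A3 in sibcat replicate C (12.83, against 12.74 to 12.75 in the others), ALDOA in APC replicate D (12.97, against 12.92 in the others), ALDOC in sibcat replicate B (7.90, against 7.80 to 7.81 in the others), LDHB in sibcat replicate C (13.45, against 13.38 to 13.39 in the others) and HIF1A in sibcat replicate C (12.35, against 12.23 to 12.25 in the others). The low arrays were PFKM in APC replicate B (9.50, against 9.64 to 9.65 in the others) and KDM3A in sibcat replicate D (9.99, against 10.06 in the others). Of these 8, 5 were in sibcat cells and 3 of those in sibcat replicate C; without it the sibcat differences of HIF1A (0.19) and PDK1 (0.31) did not pass the test.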

How the results depend on the processing

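Counts and medians were recomputed under 11 alternatives and with each array left out. The share of all genes called moved as well. Against siGFP cells it was 25.3%, 30.8% and 29.1% in siTAZ, sibcat and APC cells without _s_at and _x_at probe sets. In replicates A and B alone it was 18%, 24.4% and 21.2%, and in C and D alone 26.7%, 31.8% and 29.7%. The main fit gave 30.1%, 35.9% and 33.7%. Without _s_at and _x_at probe sets only 23 genes were measured, and the counts were 9 higher in siTAZ, 13 higher in sibcat, and 0 higher and 14 lower in APC cells against siGFP cells; 9 lower in siTAZ than in sibcat cells; 1 higher and 19 lower in APC than in sibcat cells; and 14 higher and 2 lower in siTAZ than in APC cells. Medians there were 0.21 for glycolysis genes in siTAZ cells, 0.07 for other HIF targets in sibcat cells, and -0.37 for glycolysis genes and -0.66 for other HIF targets in APC cells, the last also -0.66 without dim genes. With the mean of all probe sets 5 genes fell in sibcat cells, and the sibcat medians were 0.23 for glycolysis genes and 0.19 for other HIF targets. Glycolysis medians in siTAZ and sibcat cells were 0.23 and 0.34 under cyclic loess and 0.15 and 0.25 with 75th percentile centring, and the sibcat one 0.25 with the ACTB covariate. In replicates A and B alone 11 genes rose in siTAZ cells, 1 rose in APC cells, 11 were lower in siTAZ than in sibcat cells and 1 was higher in APC than in sibcat cells. In replicates C and D alone 1 rose in APC cells and 1 was higher in APC than in sibcat cells, as under cyclic loess. Leaving out 1 array moved the siTAZ glycolysis median between 0.15 and 0.20 and the count higher in APC cells between 1 and 2. The other counts stayed within 1.5 times.

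Signs turned with the mean of all probe sets for SLC2A3 (-0.09) and ENO1 (-0.05) in siTAZ cells, HK2 (-0.10) and EGLN3 (-0.28) in sibcat cells, TPI1 in APC minus sibcat cells (0.04), and HK2 (-0.27) and PKM (0.23) in siTAZ minus APC cells. Without _s_at and _x_at probe sets they turned for ENO1 (-0.01) and P4HA1 (-0.07) in siTAZ cells, TPI1 (-0.13) and P4HA1 (-0.14) in sibcat cells, P4HA1 in siTAZ minus sibcat cells (0.07), and TPI1 (0.33) and P4HA1 (0.07) in APC minus sibcat cells. PKM was at -0.31 in siTAZ cells with the ACTB covariate. Another probe set stands for the gene in the probe set alternatives, and in the last case the cause was not tested.

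Same-lettered arrays of different groups deviated together in 21 of 24 pairs (r over 0.1, lowest 0.08). Their median r was 0.15, against -0.13 over 72 pairs of different letters, of which 19 were over 0.1. Since 9 of 16 arrays correlated best with their own letter, the letters were not taken as pairs. The main fit thus leaves out a deviation that same-lettered arrays shared in part. With the replicate block 20 members rose in siTAZ, 28 in sibcat and 2 in APC cells, and 6, 3 and 26 fell. Of all genes, 34.4%, 39.9% and 38.5% were called with it. The block brought past the test GPI (0.17) and PGAM1 (0.12) in siTAZ cells and HK1 (-0.15), PFKFB3 (-0.19) and LDHA (-0.11) in APC cells. Array signals near the top of the range, as for GAPDH and LDHA, and those under 5.09, as for BNIP3, limit what differences could be seen.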

Other observations

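Of the other glucose genes, those of glycogen and the pentose phosphate path, picked out after their values were seen, differed between groups as well. The glycogen branching enzyme gene GBE1 averaged 11.07 ± 0.03 in siTAZ cells, 11.61 ± 0.02 in sibcat cells, 10.28 ± 0.05 in APC cells and 10.95 ± 0.09 in siGFP cells (SD, n = 4). It rose by 0.66 in sibcat cells and fell by 0.67 in APC cells (limma adjusted p = 1.28e-08 and 1.01e-08). PGM1, which links glucose 1-phosphate and glucose 6-phosphate, rose in siTAZ (0.13), sibcat (0.64) and APC cells (0.30), and so did the glycogen synthase gene GYS1 (0.26, 0.65 and 0.35). The transketolase gene TKT rose by 0.30 in siTAZ cells and by 0.68 in sibcat cells, and fell by 0.29 in APC cells. PGD, which makes NADPH in the pentose phosphate path, fell in siTAZ (-0.25), sibcat (-0.39) and APC cells (-0.32).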
